A study of Schizosaccharomyces pombe with 78 samples.

Results

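The RNAs described here are 100 long noncoding RNAs of the fission yeast Schizosaccharomyces pombe whose level followed a fitted wave in cells with wild-type Nrm1, with the peak of the wave between 30 and 90 min after release from a G2 block. They were taken from a table of 12683 features, of which 7212 carry the systematic names of noncoding RNAs. The 1068 noncoding RNAs with a mean normalised read count of at least 30 over the 78 libraries were considered. For each, the mean log2(count + 1) of both wild-type replicates at 0 to 220 min was fitted with a level, a linear trend in time and a wave with a period of 120 min. An RNA was kept when the peak-to-trough height of the wave, which is 2 times its amplitude, was at least 1 on the log2 scale and its peak lay at 30 to under 90 min. In all, 120 noncoding RNAs cycled by this rule, and 20 of them peaked outside the window. Another 452 noncoding RNAs met the wave limits with a mean count under 30 and were not used.

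The strains Nrm1, Nrm1-SA and Nrm1-SD were compared, all carrying the temperature-sensitive cdc25-22 allele and Nrm1 tagged with 3 HA epitopes. The control strain, called Nrm1, had the wild-type protein. Nrm1-SA had 11 CDK consensus sites changed to alanine, so that they cannot be phosphorylated, and Nrm1-SD had the same sites changed to residues that mimic phosphorylation. Cells were held at 36 °C for 4 h, where cdc25-22 stops them before mitosis, released at 25 °C, and sampled every 20 min until 220 min, and asynchronous cultures of each strain were sequenced too, with 2 biological replicates per condition. A point mutation cannot be checked in a table of read counts. As the block rests on a mutated Cdc25 and a heat shift in all strains, the levels at 0 min are those of arrested and not of freely cycling cells.

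Cdc25 activates the cyclin-dependent kinase at the entry into mitosis. After release, fission yeast transcribes genes in waves: forkhead factors raise mitotic genes, the genes for septum assembly and cell separation follow, and the MBF complex raises genes for DNA replication at the G1/S transition, before the histone genes come up in S phase. Nrm1 is a corepressor that loads onto MBF outside that window and is itself made from an MBF-driven gene. Long noncoding RNAs of yeast often start from the nucleosome-free region of a protein-coding promoter and run away from the gene on the other strand, which is called divergent transcription, or run antisense across a gene. Many are destroyed rapidly by the nuclear exosome, and the Mmi1 pathway removes meiotic transcripts from dividing cells.

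Between 2685381 and 10469416 reads per library fell on annotated features (median 5818955), and the 100 RNAs took 0.0896 to 0.307% of them. At 140 min the replicate libraries of Nrm1-SA were closer to each other than sampling noise allows (chi-square per degree of freedom 0.392, against 1.88 to 18.2 in the other 38 pairs) and were counted as 1 sample, so that 77 libraries entered the tests. The pair of Nrm1-SD at 220 min stood furthest apart, and counts without it are given where they were made. For the control strain, the genes that mark the order of the cycle peaked at 49.1 min for plo1, the Polo kinase, at 66.5 min for cdc22, which codes for the large subunit of ribonucleotide reductase, at 68.5 min for eng1, an endoglucanase of cell separation, and at 90.5 min for the histone gene hht1.

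By their peak in the control strain, 8 of the 100 RNAs lay at 30 to 50 min, 13 at 50 to 60 min, 23 at 60 to 70 min, 40 at 70 to 80 min and 16 at 80 to 90 min. The most populated interval was thus that of the septation genes, whose median peak was at 74.6 min, while the MBF targets had a median of 66.3 min and the mitotic genes of 61.5 min. The RNAs were 355 to 5158 nt long with a median of 1472 nt, and 45 lay on chromosome I, 30 on II and 25 on III. They were scarce: the mean count ran from 31.8 to 838.2 with a median of 59.3, and 74 had a mean under 100. All of them passed the filter for testing, a mean of at least 10, because the rule had asked for more. The mean over all libraries includes the mutants, and in the Nrm1 libraries alone 2 of the 100 were under 30: SPNCRNA.4897, with means of 28.3, 37.1 and 29.9 in Nrm1, Nrm1-SA and Nrm1-SD, and SPNCRNA.4965, with 20.7, 20.6 and 325.4. When the wave was fitted to each control culture alone, taking the time points with 1 replicate number as 1 culture, the height reached 1 in both cultures for 82 of the 100. The RNAs were selected on these heights, peak times and mean counts, which are therefore given as a description.

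**Figure D1:**
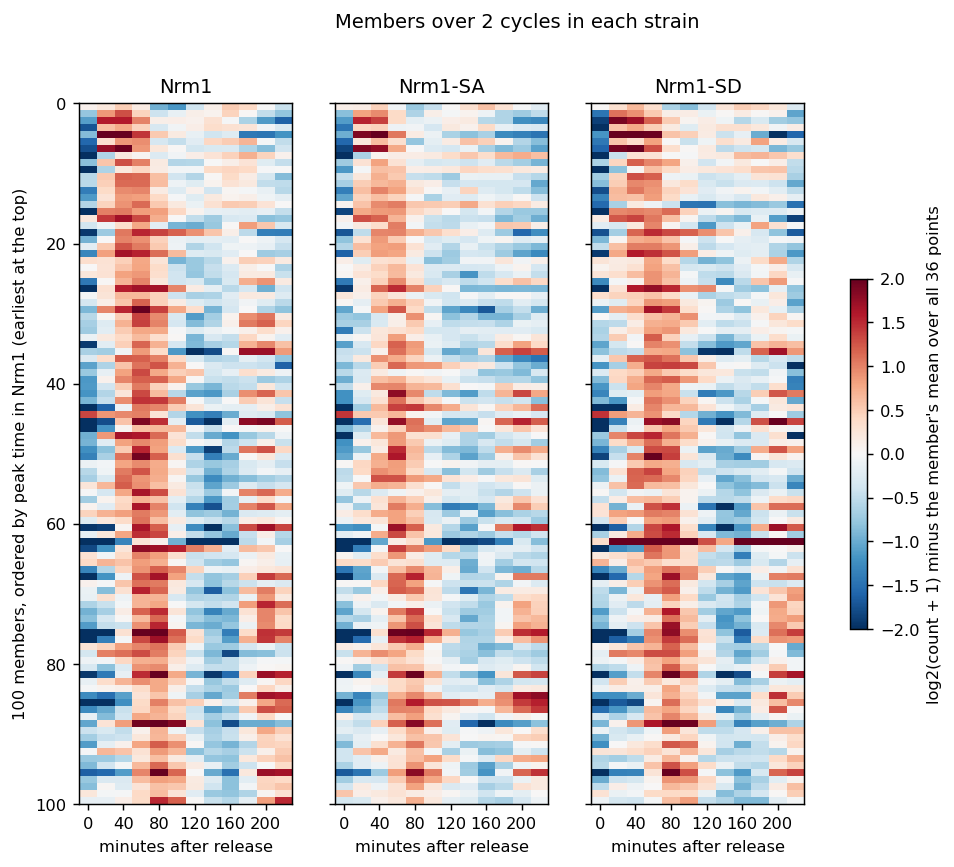
Each row is 1 of the 100 noncoding RNAs, ordered by peak time in Nrm1 from the earliest (top) to the latest, and each column is the mean of the replicates at 1 time point (minutes after release) in the strain named above the panel. The colour is log2(normalised count + 1) minus the mean of that RNA over all 36 points. The band of high values around 60 to 80 min was present in all strains, and the return at 180 to 220 min was palest in Nrm1-SA.

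The limits of the rule cut through a continuous range. Just inside the height limit were SPNCRNA.1285 with 1.01, SPNCRNA.1068 with 1.01 and SPNCRNA.1425 with 1.02, and just outside were SPNCRNA.571 with 0.998, SPNCRNA.2967 with 0.99 and SPNCRNA.6119 with 0.99. In time, the earliest RNAs kept were SPNCRNA.1644 at 36.9 min, SPNCRNA.6712 at 38.9 min and SPNCRNA.4391 at 40.9 min, and the latest were SPNCRNA.7087 at 87.0 min, SPNCRNA.1533 at 87.9 min and SPNCRNA.1432 at 88.7 min. There was a gap before the window, where the nearest cycling RNAs were SPNCRNA.4895 at 14.5 min, SPNCRNA.133 at 13.3 min and SPNCRNA.3779 at 11.8 min, and none after it, where SPNCRNA.1565 followed at 91.0 min, SPNCRNA.995 at 91.7 min and SPNCRNA.4009 at 93.6 min. For the mean count, SPNCRNA.4897 with 31.8, SPNCRNA.6847 with 32.0 and SPNCRNA.1425 with 32.4 were the lowest kept, and SPNCRNA.1216 with 29.6, SPNCRNA.2441 with 29.4 and SPNCRNA.2710 with 29.2 the highest left out.

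Almost every RNA of the group lay across or beside another gene. Of the 100, 97 overlapped an annotated gene, 71 a protein-coding gene on the other strand, 8 a protein-coding gene on their own strand, and 49 another noncoding gene on the other strand. For the 963 other noncoding RNAs with a mean of at least 30 and a place in the annotation, the same shares were 97.5%, 82.5%, 12.5% and 29.9%. A protein-coding gene started within 500 bp on the other strand, running away from the RNA, in 38 of the 100 against 29.8% of the others. In 11 of the 100 that divergent gene itself cycled with a peak at 30 to 90 min, against 1.04% of the others. An overlapping protein-coding gene cycled in that window for 13 of the 100, against 3.95%. Together 24 of the 100 had such a gene, against 4.88% of the other noncoding RNAs, and among all protein-coding genes 175 of 4926 tested, or 3.553%, cycled in the window. No test was made of these shares, since the neighbours were measured in the libraries that chose the RNAs. The overlap counts include SPNCRNA.4192, SPNCRNA.2863, SPNCRNA.3891 and SPNCRNA.6847. Reads of the overlapped gene counted on the wrong strand could make up much of their own counts, as given below.

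The RNAs with the highest waves were mostly the divergent ones. Among the 12 with the largest height in the control strain, 8 had a cycling divergent gene and 2 a cycling overlapping gene, while 14 of the other 88 had either. The partners were largely genes of septum and cell wall: gas5, a glucanosyltransferase of the cell wall, cfh4, a regulator of chitin synthase, exg1, a cell wall glucosidase, the septation gene adg2, knh2, ecm33, a cell wall protein, and myp2, a myosin of the contractile ring. The others were spo12, a mitotic gene, mus81, a nuclease of recombination, sul2 and SPBC800.11.

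SPNCRNA.1069, which starts 196 bp from gas5, had the highest wave with a height of 4.25 on the log2 scale and a peak at 70.0 min. Its counts in the control replicates were 22.5 and 33.3 at 0 min, 613 and 703 at 60 min, 39.1 and 32.7 at 140 min, and 702 and 632 at 200 min. Both peaks thus stood clear of the trough between them in both cultures. The gene gas5 went from 390 and 408 at 0 min to 4173 and 3921 at 60 min, with a height of 2.80 and a peak at 66.2 min. Over the means of the 12 time points the pair had r = 0.94.

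SPNCRNA.1544, 190 bp from cfh4, had 47.7 and 54.3 counts at 0 min, 836 and 814 at 80 min, and 60.8 and 42.3 at 140 min, and the gene had 3284 and 3210 at 80 min. Their r was 0.95, and the RNA peaked at 78.9 min against 75.1 min for cfh4. A similar contrast held for SPNCRNA.1609, 357 bp from exg1, with 17.3 and 19.3 counts at 0 min, 211 and 253 at 60 min and 16.5 and 13.5 at 140 min. It lagged exg1, with peaks at 73.7 and 64.8 min and r = 0.88. SPNCRNA.3821, 202 bp from adg2, had 8.91 and 5.25 counts at 0 min, 385 and 380 at 80 min, 53.8 and 52.9 at 140 min and 244.5 and 238 at 200 min. Its return at 200 min was lower than its first peak in both cultures, whereas adg2 came back to 6844 and 7910 counts from 6856 and 7647 at 60 min.

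The sequences around the starts of 4 of these RNAs are shown, each lying between an RNA and a cycling gene that run apart from each other. All 4 are examples that hold a motif marked below. SPNCRNA.1139, SPNCRNA.1334, SPNCRNA.3285 and SPNCRNA.4479, which also have a cycling divergent gene, held neither motif. The sequences were read from the RefSeq assembly ASM294v3, 5′ to 3′ on the strand of the RNA. They cover up to 250 bases before and 50 after its annotated start, cut off where the divergent gene begins. Capitals mark ACGCG (the core of the MBF site) and TGTTTAC (forkhead), each on either strand, so that a match on the other strand appears as its reverse complement.
SPNCRNA.1069 (chrI:5309046-5309290, plus strand, beside gas5): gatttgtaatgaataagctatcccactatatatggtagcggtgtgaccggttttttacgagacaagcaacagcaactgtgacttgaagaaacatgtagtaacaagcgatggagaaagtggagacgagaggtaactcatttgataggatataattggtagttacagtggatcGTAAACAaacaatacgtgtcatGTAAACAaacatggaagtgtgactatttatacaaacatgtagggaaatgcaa
SPNCRNA.1185 (chrIII:1309396-1309608, minus strand, beside knh2): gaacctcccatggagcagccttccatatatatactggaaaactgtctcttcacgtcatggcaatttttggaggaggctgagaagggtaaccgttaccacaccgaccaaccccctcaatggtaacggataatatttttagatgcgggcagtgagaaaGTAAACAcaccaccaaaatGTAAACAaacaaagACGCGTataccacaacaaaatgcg
SPNCRNA.1609 (chrII:3514198-3514497, minus strand, beside exg1): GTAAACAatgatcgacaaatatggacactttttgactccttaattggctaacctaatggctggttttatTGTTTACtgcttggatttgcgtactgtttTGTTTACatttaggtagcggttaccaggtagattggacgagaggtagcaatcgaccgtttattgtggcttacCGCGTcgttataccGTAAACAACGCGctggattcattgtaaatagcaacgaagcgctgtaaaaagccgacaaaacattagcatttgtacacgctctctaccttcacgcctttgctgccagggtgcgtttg
SPNCRNA.3821 (chrI:4081157-4081407, plus strand, beside adg2): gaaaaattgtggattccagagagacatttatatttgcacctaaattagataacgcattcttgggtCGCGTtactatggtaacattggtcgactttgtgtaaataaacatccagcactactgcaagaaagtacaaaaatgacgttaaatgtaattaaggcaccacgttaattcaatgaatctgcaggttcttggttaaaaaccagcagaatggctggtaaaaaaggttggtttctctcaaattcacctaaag

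In these stretches SPNCRNA.1069 held TGTTTAC 2 times close to its start, SPNCRNA.1185 held it 2 times beside an ACGCGT, SPNCRNA.1609 held it 4 times with ACGCG 2 times, and SPNCRNA.3821 held ACGCG once. Over windows of 300 bases, 250 before to 50 after the start, TGTTTAC was found on either strand in 6 of the 11 RNAs with a cycling divergent gene, in 18 of the 100, in 10.1% of the other noncoding RNAs and in 13% of the 12601 genes with a window. ACGCG was in 4 of the 11, in 12 of the 100, in 9.35% of the others and in 9.86% of all. The longer ACGCGT, which contains ACGCG on both strands, was in 3 of the 100, in 1.77% of the others and in 2.46% of all. The histone element AACCCT was in 2 of the 100, none of them among the 11, in 10.8% of the others and in 9.19% of all. A match is a run of letters and not a bound site.

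**Figure D2:**
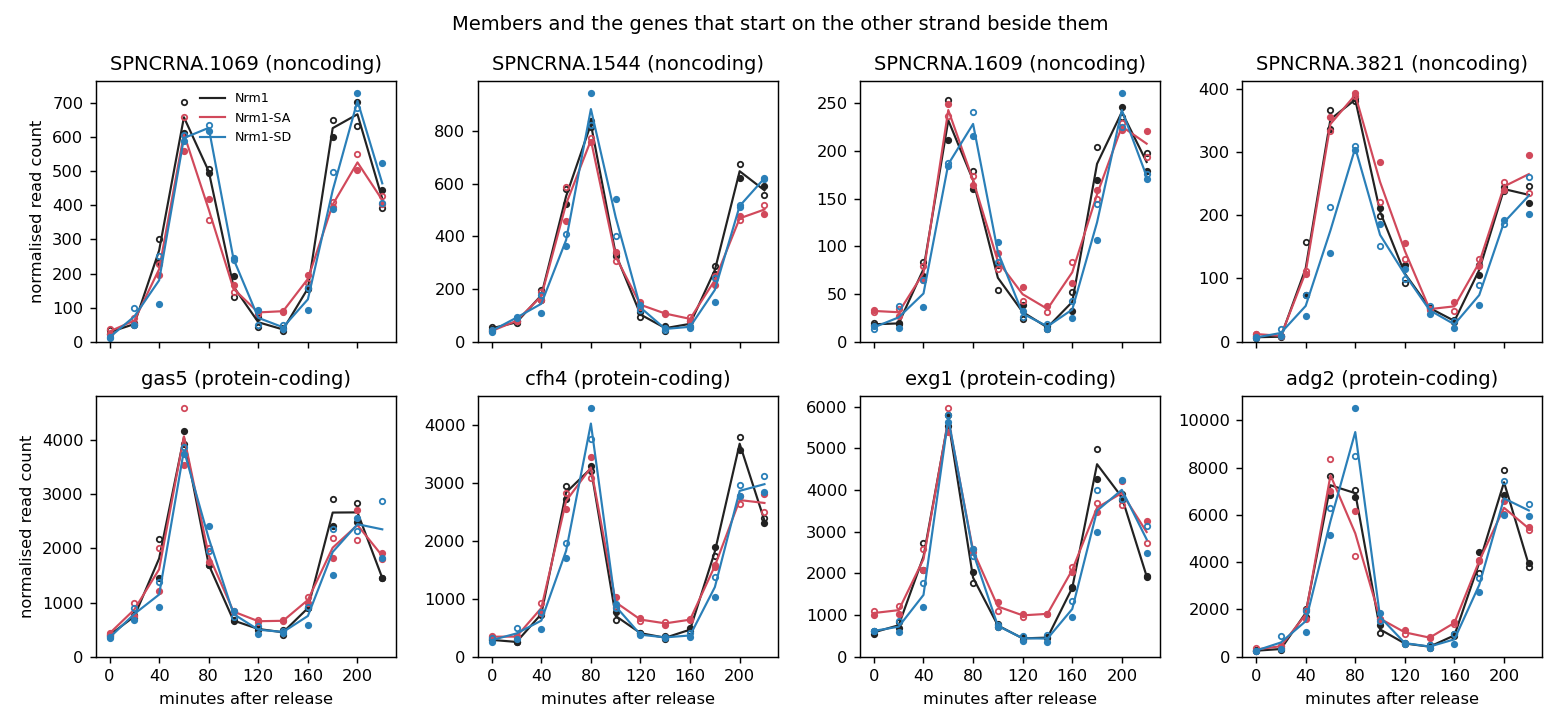
Normalised read count (vertical axis, linear, from 0) against minutes after release for 4 noncoding RNAs (top) and the protein-coding gene that starts beside each on the other strand (bottom). Filled points are replicate 1, open points replicate 2 and lines the means, in black for Nrm1, red for Nrm1-SA and blue for Nrm1-SD. Both partners of each pair were high at 60 to 80 min and again at 180 to 220 min, and at 140 min the Nrm1-SA libraries of SPNCRNA.1069, with 88.1 and 91.1 and counted as 1 sample, lay above those of Nrm1, with 39.1 and 32.7.

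The remaining divergent pairs gave values of the same kind. SPNCRNA.1185 and knh2, 164 bp apart, had r = 0.99 and peaks at 75.8 and 78.1 min, and SPNCRNA.3285 and spo12, 122 bp apart, had r = 0.92 and peaks at 69.8 and 65.8 min. For SPNCRNA.837 and myp2, 137 bp apart, r was 0.81, and for SPNCRNA.1139 and mus81, 197 bp apart, it was 0.74 with the RNA at 73.1 min and the gene at 59.6 min. SPNCRNA.1334 and SPBC800.11, 16 bp apart, had r = 0.81, and SPNCRNA.4479 and sul2, 135 bp apart, had r = 0.87. The pair with the lowest value was SPNCRNA.2694 and ecm33, 419 bp apart, with r = 0.28 although the gene had a wave with a peak at 63.3 min. Across all 36 RNAs with a tested divergent gene the median r was 0.594, with 13 at 0.7 or more, against a median of 0.00586 and 10.6% for the 284 pairs of other noncoding RNAs. The points of each correlation share their libraries, and the cycling RNAs were selected for a wave.

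RNAs that ran antisense across cycling genes formed a group of like size, with 12 pairs against 11 divergent pairs. SPNCRNA.1021 lies across mid2, which codes for an anillin-like protein of the septin ring, and had counts of 60.3 and 57.8 at 0 min, 346 and 309 at 80 min and 35.6 and 56.7 at 140 min in the control strain. Its r with mid2 was 0.93. SPNCRNA.6847 lies across SPCC306.11, the overlapped gene with the highest wave at 4.35, and had 8.39 and 5.25 counts at 0 min and 57.7 and 71.1 at 60 min. SPNCRNA.1246 overlaps the end of the septation gene adg3 by 7.29% of its own length, with 141.7 and 142.8 counts at 80 min and r = 0.96. SPNCRNA.5428 overlaps knh4 (r = 0.87) and SPNCRNA.1056 overlaps mug106 (r = 0.94), and both were among the 12 highest waves.

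A second set of antisense RNAs crossed MBF targets and the histone gene hhf2. SPNCRNA.3891 runs across cdc22 and had 113 and 115.5 counts at 0 min and 452 and 484.5 at 60 min, against 3070 and 3179, then 26631 and 26761 for cdc22. SPNCRNA.2863 runs across tos4, an FHA domain protein made from an MBF-driven gene, with 46.7 and 26.3 counts at 0 min and 138.5 and 129 at 60 min. Both had r = 0.98 with the gene across from them. SPNCRNA.5147 (antisense, r = 0.51) and SPNCRNA.1432 (same strand, r = 0.96) overlap hhf2, which codes for histone H4, and SPNCRNA.1432, with the latest peak of all, had 254 and 308 counts at 80 min and 313 and 249 at 220 min.

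The level of these RNAs has to be read beside the number of reads that the counting gave to the wrong strand of strong genes. The kit marks the strand, but the strand setting of the counting was not given in the sources used here. In 2924 cases a noncoding RNA was nested within a gene on the other strand, 2902 of them had reads, and the host was higher per length in 98.8%, as strand-aware counting would give. Where the host had a mean of at least 5000, the 83 nested noncoding RNAs had a median of 1.22% of the host's level per length, with quartiles of 0.93 and 1.54%. A share of that size would equal 134% of the count of SPNCRNA.4192, antisense to the wall gene gas1, 106% for SPNCRNA.2863, 70.5% for SPNCRNA.3891, 60.5% for SPNCRNA.5147 and 53.7% for SPNCRNA.2850, antisense to alo1. It would come to 28.5% for SPNCRNA.6847 and 26.5% for SPNCRNA.1021, and to under 10% in 80 of the 100, including 3 with no gene across. The share was larger for weaker hosts, with medians of 1.59% for hosts at 1000 to 5000, 3.25% at 100 to 1000 and 12.1% at 10 to 100. With the median for the level of each gene across, 8 of the 100 came to 50% or more, the further 3 being SPNCRNA.5191 (83.6%), SPNCRNA.6847 (75.9%) and SPNCRNA.7478 (54.8%), SPNCRNA.1021 came to 35.8%, and 61 were under 10%. As a ratio of counts in the control strain, SPNCRNA.3891 was 3.65% of cdc22 at 0 min, 1.76% at 60 min and 2.50% at 140 min, and SPNCRNA.2863 was 1.28%, 0.915% and 1.14% of tos4. The part of wrong-strand reads in these 8 RNAs was not tested. The 8 RNAs that overlap a protein-coding gene on their own strand, among them SPNCRNA.1246 and SPNCRNA.1432, and the 8 in 4 pairs that overlap each other could share reads and are uncertain as well.

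**Figure D3:**
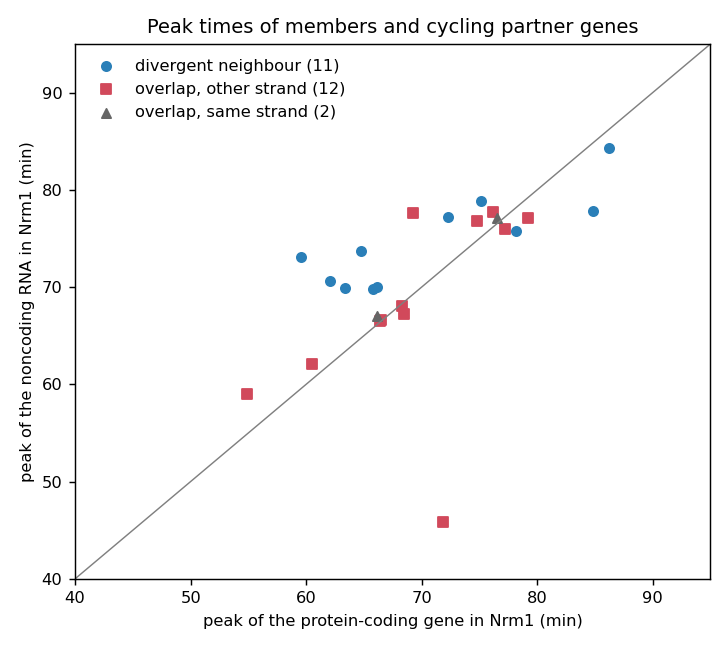
Peak time of the noncoding RNA against that of the protein-coding gene beside or across it in Nrm1, both in minutes after release, for the 25 pairs in which the gene also cycled at 30 to 90 min. Circles are divergent neighbours, squares genes overlapped on the other strand, triangles genes overlapped on the same strand, and the line marks equal times. In 23 of the 25 pairs the times lay within 10 min of each other. Both partners had to peak at 30 to 90 min, so near times are in part built in.

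In the 25 pairs with a cycling partner, which involve 24 of the RNAs, the noncoding RNA peaked a median of 1.48 min after the gene, with a range from 26.0 min before it to 13.5 min after it, and 23 pairs lay within 10 min. The exception before it was SPNCRNA.1192, antisense to wtf11. The pairs include the RNAs across gas1, tos4, cdc22 and SPCC306.11, for which near times and a high r could come from wrong-strand reads. This was not tested. The median r was 0.879, 0.854 and 0.844 in Nrm1, Nrm1-SA and Nrm1-SD. For all 85 antisense pairs, by contrast, the median r in the control strain was 0.095, with 11 pairs at 0.7 or more and 10 at -0.7 or less, or 12.9% and 11.8%, against 10.1% and 10.2% for the other noncoding RNAs. Antisense RNAs of the group thus went with the gene across from them about as often as against it.

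The opposed pairs included SPNCRNA.3035, antisense to are1, which codes for a sterol acyltransferase, with r = -0.94. It had 1 peak in the time course, with 13.1 and 12.3 counts at 0 min, 153 and 128 at 40 min, 71.9 and 61.8 at 60 min and 7.09 and 9.12 at 200 min in the control strain. The next were SPNCRNA.2288 antisense to tsc1, the hamartin gene of TOR signalling (r = -0.89), SPNCRNA.1687 antisense to vps10, a sorting receptor (r = -0.86), SPNCRNA.7487 antisense to SPCC1450.12 (r = -0.82), SPNCRNA.1257 antisense to wtf21 (r = -0.81), SPNCRNA.1461 antisense to the prefoldin gene pfd1 (r = -0.81) and SPNCRNA.5967 antisense to arc3, a subunit of the Arp2/3 complex (r = -0.77). These correlations run over 12 means that share libraries and one selected time course, and no p was computed.

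A few RNAs have names of their own. SPNCRNA.29 is meu19 and SPNCRNA.07 is meu3, named for expression that goes up in meiosis, and SPNCRNA.1696 is nam3, an RNA bound by Mmi1. The RNA meu19 had 75.5 and 78.8 counts at 0 min, 255 and 291 at 80 min, 95.5 and 87.4 at 140 min and 584 and 610 at 200 min in the control strain, so that its second peak was the higher. The RNA meu3 had 114 and 99.4 counts at 80 min and 139 and 175.5 at 200 min. The most abundant RNA of the group, nam3, was highest at 0 min with 1876 and 1954 counts against 315 and 435 in asynchronous cells, had 1494 and 1549 at 60 min and 293 and 291 at 140 min. Its wave of 1.16 sat on a falling trend that the fit takes out.

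The first question across strains is whether the wave was present when the sites on Nrm1 were changed, which the rule did not use. A rhythm was called when the test of the wave had an adjusted p below 0.1 and the height was at least 1. By limma over 7431 features with Benjamini-Hochberg adjustment, 42 of the 100 RNAs had a rhythm in Nrm1-SA, where 3.84% of all features and 0.723% of the other noncoding RNAs with a mean of at least 30 did. In Nrm1-SD 80 of the 100 had one, against 7.75% and 3.1%. Both strains had it in 40 RNAs, Nrm1-SD alone in 40, Nrm1-SA alone in 2 and neither in 18. Without the limit on height, 75 passed for Nrm1-SA, against 37.6% of all features, and 96 for Nrm1-SD, against 53.4%. The RNAs that cycled in the control strain thus had a wave in the mutants far more often than all features did. Among the 175 protein-coding genes that cycled in the same window 51.4% had a rhythm in Nrm1-SA and 77.1% had one in Nrm1-SD. With a period of 110 min in place of 120 min the counts were 24 and 53, and without the Nrm1-SD libraries of 220 min they were 42 and 76. Without SPNCRNA.4965 and SPNCRNA.4897, the 2 RNAs with a mean under 30 in Nrm1, they were 41 and 78.

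The height of the wave was lowest in Nrm1-SA. The median was 1.34 in Nrm1 (1.364 and 1.454 in the cultures), 0.985 with Nrm1-SA (0.951 and 0.973) and 1.27 with Nrm1-SD (1.27 and 1.31), and 100, 48 and 82 RNAs reached 1. Relative to Nrm1, the median height was 73.1% for Nrm1-SA and 92.9% for Nrm1-SD. It was lower than in Nrm1 for 92 RNAs and for 72 RNAs respectively, and both mutant cultures lay below both control cultures for 80 and for 35. Because the control libraries chose the RNAs, a lower value elsewhere is in part built in, and the comparison with Nrm1 has no test. Over all features tested the medians were 0.362, 0.306 and 0.365, and over the other noncoding RNAs 0.384, 0.347 and 0.407. In bulk cultures a smaller wave in every cell and a culture in which fewer cells pass the stage together cannot be told apart.

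**Figure D4:**
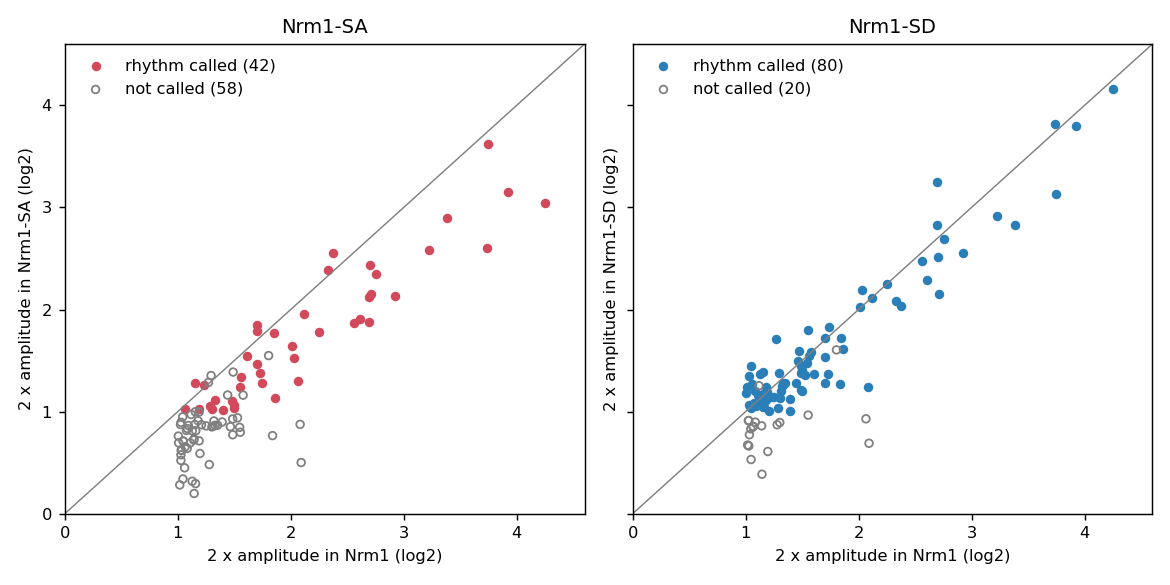
Peak-to-trough height of the wave (2 times the amplitude, log2 scale) of each of the 100 noncoding RNAs in Nrm1 (horizontal) and in the mutant (vertical), with the line of equal height. Filled points had a rhythm called in the mutant, 42 in Nrm1-SA and 80 in Nrm1-SD, and open points did not. Most points lie below the line in Nrm1-SA, and Nrm1 chose the points, so that none has a height under 1 there.

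The mutants entered the rule only through the mean count, and the difference between them was tested. The height was larger in Nrm1-SD than in Nrm1-SA for 82 of the 100 RNAs, with a median difference of 0.279, against 66.1% of all features and 88.6% of the 175 cycling protein-coding genes. For single RNAs the difference in wave passed the limma test for 0 of the 100 and for 0% of all features. At an unadjusted p under 0.05 there were 10, where 3.59% of all features had one, and the lowest adjusted p was 0.744. The edgeR test had 7 under that limit and DESeq2 10, and neither called any. The peak times hardly moved: the 42 RNAs with a rhythm in Nrm1-SA peaked a median of 0.158 min before Nrm1 (-8.91 to 14.7 min), and the 80 in Nrm1-SD 2.81 min after it (-5.94 to 12.1 min).

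The highest waves were all present in both mutants. All of the 12 largest passed as rhythmic in each, with heights of 1.88 to 3.62 in Nrm1-SA and 2.15 to 4.16 in Nrm1-SD, against 2.69 to 4.25 in Nrm1. SPNCRNA.4965, which is 1 of the 12, reached the mean count of the rule only through Nrm1-SD. Its rhythm in Nrm1-SD is therefore a description and not a test. SPNCRNA.1069 had 559 and 659 counts at 60 min, 88.1 and 91.1 at 140 min and 502 and 549 at 200 min in Nrm1-SA, and 589 and 605, 36.2 and 48.5, and 729 and 684 in Nrm1-SD. At 140 min, where the Nrm1-SA libraries count as 1 sample, it lay above the other strains in Nrm1-SA, and at 200 min below them, while at 60 min the strains overlapped. SPNCRNA.3821 had nearly the control height in Nrm1-SA, with 3.62 against 3.75, and 3.13 in Nrm1-SD. SPNCRNA.1139, beside mus81, went the other way, with 2.12 in Nrm1-SA, 2.69 in Nrm1 and 3.24 in Nrm1-SD. Its mean count was only 32.7, and the Nrm1-SD cultures differed. The fall after its first peak was 4.213 and 2.558 in the Nrm1-SD cultures, against 2.793 and 2.855 in those of Nrm1.

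The smallest waves relative to Nrm1 were found next to 2 genes of the MBF circuit. SPNCRNA.1548, which starts 486 bp from cdc10, the gene of an MBF subunit, and runs antisense across mmp2, had 611 and 696 counts at 60 min in the control strain but 192 and 201 in Nrm1-SA and 202 and 180 in Nrm1-SD. At 0 min the strains overlapped, with 191 and 219, 176 and 174, and 222 and 199.5. The mutant libraries thus stayed near the level of arrested cells, and the height was 2.09, 0.50 and 0.69 in Nrm1, Nrm1-SA and Nrm1-SD. SPNCRNA.3215, which starts 250 bp from cig2, a cyclin gene for S phase driven by MBF, and overlaps grx5, had 89.9 and 138 counts at 60 min in the control strain, 33.8 and 50.3 in Nrm1-SA and 73.4 and 76.8 in Nrm1-SD, with heights of 1.15, 0.20 and 0.39. The gene cig2 had a height of 0.80 in Nrm1, under the limit used for cycling partners, 0.54 with Nrm1-SA and 0.26 with Nrm1-SD.

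The letters of the MBF site stood upstream of both. They did not go with a small wave in general. ACGCGT was also found for SPNCRNA.1185, rhythmic in both mutants, and for SPNCRNA.700, whose wave in Nrm1-SA was not below that in Nrm1. In the same windows of 300 bases nam3, SPNCRNA.1425, SPNCRNA.2863 and SPNCRNA.809, with the next smallest relative waves, held no ACGCG. For SPNCRNA.1548, 30 bases around the ACGCGT that begins 84 bases before its start are given, and for SPNCRNA.3215 the stretch between it and cig2 with the first 50 bases of the RNA, with every ACGCG of either strand in capitals, as examples of RNAs whose wave was small in both mutants. The first site lies within the annotated span of mmp2.
SPNCRNA.1548 (chrII:2764190-2764219, plus strand): atatagaACGCGACGCGTcgaaataaatta
SPNCRNA.3215 (chrI:2709483-2709781, minus strand, beside cig2): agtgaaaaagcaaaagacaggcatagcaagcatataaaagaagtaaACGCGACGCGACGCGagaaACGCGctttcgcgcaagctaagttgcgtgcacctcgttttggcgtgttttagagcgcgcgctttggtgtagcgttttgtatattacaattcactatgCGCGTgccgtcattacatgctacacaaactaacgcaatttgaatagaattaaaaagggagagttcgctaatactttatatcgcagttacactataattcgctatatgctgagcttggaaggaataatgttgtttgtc

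The other small waves in Nrm1-SA were those of nam3, with 1.16 in Nrm1 and 0.30 in Nrm1-SA, and SPNCRNA.1425, with 1.02 and 0.28. In Nrm1-SD they were SPNCRNA.2863 across tos4, with 2.06 and 0.93, and SPNCRNA.809, with 1.05 and 0.53. For SPNCRNA.2863 the wrong-strand share of strong hosts would equal 106% of its count. The opposite end was held in Nrm1-SA by SPNCRNA.700 (1.15 in Nrm1, 1.28 in Nrm1-SA), SPNCRNA.3787 (1.70 and 1.85), SPNCRNA.4801 (2.37 and 2.55) and SPNCRNA.7345 (1.70 and 1.79), and in Nrm1-SD by SPNCRNA.1602 (1.05 in Nrm1, 1.45 in Nrm1-SD), SPNCRNA.3035 (1.27 and 1.71), SPNCRNA.1073 (1.03 and 1.35) and SPNCRNA.1068 (1.01 and 1.24). SPNCRNA.1602 at 220 min in Nrm1-SD had 359 and 99.8 counts, the pair of libraries that stood furthest apart.

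Lists of protein-coding genes that mark the cycle give the scale for these changes. All 14 MBF targets were tested, 12 reached a height of 1 in Nrm1, 5 had a rhythm in Nrm1-SA and 6 in Nrm1-SD, and their median height was 49.8% of that of Nrm1 for Nrm1-SA and 48.5% for Nrm1-SD. cdc18, the replication licensing factor, had heights of 2.00, 0.38 and 0.46 in Nrm1, Nrm1-SA and Nrm1-SD. All 8 septation genes had a rhythm in both mutants, with a median of 77.8% and 94.9% of the height in Nrm1. Of the 10 mitotic genes, 6 had a rhythm in Nrm1-SA and 9 in Nrm1-SD, and of the 9 histone genes 8 did in each. Their median heights were 65.4% and 85.8% of those in Nrm1 for the mitotic genes and 67.3% and 79.65% for the histone genes. The 100 noncoding RNAs, at 73.1% and 92.9%, had values nearest to those of the septation genes. SPNCRNA.1548 and SPNCRNA.3215, at 24.0% and 17.3% in Nrm1-SA and 33.0% and 33.8% in Nrm1-SD, lay below the medians of the MBF targets in both. Both RNAs were named for the smallest heights relative to Nrm1 among the 100, so a place below a median follows from that choice. The septation genes had far higher waves, with a median of 4.11 in Nrm1 against 1.34. Since adg2, adg3, cfh4 and mid2 lie beside or across RNAs of the group, the likeness is in part built in. The 12 genes of noncoding RNA decay (exosome, Mmi1 and RNAi factors) had heights of 0.12 to 0.59 in Nrm1, under the limit, and 3 of them, dis3, rrp41 and mtl1, were lower in asynchronous Nrm1-SA (limma, adjusted p below 0.1), where 5.07% of all features were lower.

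Read at the times of the control strain, the return of the RNAs in the second cycle was smallest in Nrm1-SA. For each RNA the level at its control peak time plus 120 min was set against that at its peak time plus 60 min, on the log2 scale. A second peak that came later in a mutant would be read as a smaller return, and such a delay was not tested. The control libraries also chose the RNAs, so the comparison with Nrm1 is a description. The median return was 0.737, 0.212 and 0.434 in Nrm1, Nrm1-SA and Nrm1-SD, and the fall after the first peak had medians of 1.54, 0.985 and 1.34. The level came back in both cultures for 82 RNAs, 58 and 71 in Nrm1, Nrm1-SA and Nrm1-SD, and in neither for 11, 21 and 14. The return was smallest for the RNAs that peaked early: with a peak at 30 to 60 min the medians were 0.418, -0.0612 and 0.28, at 60 to 70 min 0.704, 0.0691 and 0.279, at 70 to 80 min 0.885, 0.26 and 0.6, and at 80 to 90 min 1.05, 0.466 and 0.59. The number with a rhythm in Nrm1-SA was lowest in the first of these intervals, with 3 of 21, 9 of 23, 22 of 40 and 8 of 16, whereas in Nrm1-SD it was 19, 16, 31 and 14.

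In neither control culture did 11 of the RNAs rise again. SPNCRNA.4801 had 154 and 152.5 counts at 80 min and 15.1 and 12.5 at 200 min in the control strain, 93.0 and 114 then 13.2 and 12.3 in Nrm1-SA, and 147 and 153 then 9.20 and 21.1 in Nrm1-SD. SPNCRNA.3035 fell by 2.11 after its peak and had a return of -0.67, and SPNCRNA.1371 had -1.43, the lowest of all. The name of a cycling RNA thus rests on 1 peak for these. At 0 min both libraries lay below both asynchronous libraries for 38 of the 100, 38 and 36 in Nrm1, Nrm1-SA and Nrm1-SD, where 35.1%, 38.8% and 36.4% of all features did. Both lay above for 38, 37 and 42, against 37.6%, 36.2% and 39% of all features. The median differences were 0.01, -0.06 and 0.08 on the log2 scale, whereas the 968 other noncoding RNAs had 0.43, 0.25 and 0.27, with 195 to 250 lower and 479 to 533 higher at 0 min in the strains. The Nrm1 libraries of 0 min were part of the fit that chose the RNAs by their peak time. The contrast with the other noncoding RNAs is therefore in part built in and is a description.

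In asynchronous cells, which entered the rule only through the mean count, few of the RNAs differed between strains. By limma 14 of the 100 changed in Nrm1-SA relative to Nrm1 (adjusted p below 0.1), 9 higher and 5 lower, where 13.8% of all features did, 8.75% higher and 5.07% lower, a share near that of the 100. The median difference was 0.09 over the 100 and 0.03 over all features. In Nrm1-SD 4 changed, 2 higher and 2 lower, against 2.4% of all features, 1.55% higher and 0.848% lower. Between the mutants 6 differed, 2 higher and 4 lower in Nrm1-SD, against 8.6% of all features, 3.27% higher and 5.33% lower. The 14 came to 4 by edgeR, 3 by DESeq2, 2 without Nrm1 replicate 2, 3 without Nrm1-SA replicate 2 and 7 without Nrm1-SA replicate 1, and the 4 of Nrm1-SD came to 2 by edgeR and by DESeq2. Leaving out SPNCRNA.4965 and SPNCRNA.4897, which reached a mean of 30 only with the mutant libraries, the counts were 13, 3 and 5. Without the Nrm1-SD libraries of 220 min, which changes the pooled spread, 18, 7 and 11 were called in the order of the comparisons above.

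SPNCRNA.4965 was far higher in Nrm1-SD than in the other strains. It reached the mean count of the rule only through Nrm1-SD, so a difference was built in, and its values are a description with no test. It runs antisense across med15, which codes for a subunit of Mediator, for 89.7% of its length, and had 6.84 and 11.7 counts in asynchronous Nrm1, 13.8 and 12.1 in Nrm1-SA and 159 and 174 in Nrm1-SD. The difference between Nrm1-SD and Nrm1 was 4.07 on the log2(count + 1) scale. The same held through the time course, with 44.9 and 55.4 counts at 60 min in the control strain, 37.1 and 56.9 in Nrm1-SA and 620 and 694 in Nrm1-SD, so that the wave of 2.91 in Nrm1-SD ran at a higher level with a peak at 69.3 min. The gene med15 had 637 and 628 counts at 60 min in the control strain, 743 and 771 in Nrm1-SA and 1371 and 1315 in Nrm1-SD. Its wave had a height of 0.32 in Nrm1, 0.21 in Nrm1-SA and 0.95 with a peak at 65.4 min in Nrm1-SD, and in asynchronous cells it was 0.31 higher in Nrm1-SD (limma adjusted p = 0.0592). RNA and gene were thus both higher in Nrm1-SD at 60 min, without overlap between the strains.

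**Figure D5:**
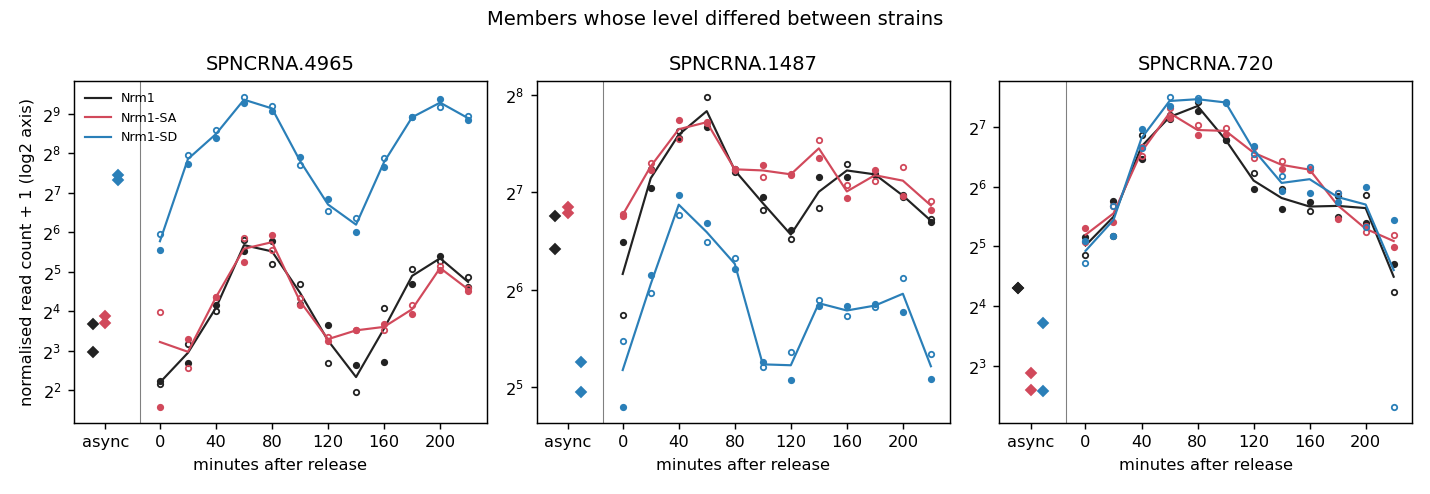
Normalised read count + 1 (log2 axis) of SPNCRNA.4965, SPNCRNA.1487 and SPNCRNA.720 in asynchronous cultures (diamonds, left of the line) and against minutes after release. Filled points are replicate 1, open points replicate 2 and lines the means, in black for Nrm1, red for Nrm1-SA and blue for Nrm1-SD. SPNCRNA.4965 lay higher and SPNCRNA.1487 lower in Nrm1-SD than in the other strains, whereas SPNCRNA.720 differed in asynchronous cells and overlapped between strains at 60 min.

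SPNCRNA.1487 fell in Nrm1-SD. It is antisense to mag2, a DNA glycosylase gene, and had 107 and 84.2 counts in asynchronous Nrm1, 109 and 114 in Nrm1-SA and 37.3 and 29.8 in Nrm1-SD, a difference of -1.48 ± 0.17 from Nrm1 (SE; limma adjusted p = 7.6e-09, called under all 18 alternatives). At 60 min it had 202 and 252, 209 and 211, and 102 and 88.5 counts, so that it was lower in Nrm1-SD there too, with a height of 1.27 against 1.06 in Nrm1. The gene mag2 was scarce, with 25.7 and 16.4 counts in asynchronous Nrm1, 17.0 and 23.3 in Nrm1-SA and 5.59 and 11.6 in Nrm1-SD (log2 difference of -1.24, limma adjusted p = 0.42). At 60 min, where the RNA was high in Nrm1, mag2 had 3.00 and 4.61 counts there, against 20.4 and 24.5 at 0 min, and their r was -0.70. Each strain is 1 genotype, and no second isolate was used to separate the allele from other differences between strains.

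In Nrm1-SA the clearest changes were of other RNAs. SPNCRNA.3285, divergent from spo12, had 19.7 and 21.1 counts in Nrm1, 45.6 and 41.5 in Nrm1-SA and 27.0 and 41.4 in Nrm1-SD, and rose in Nrm1-SA by 1.06 ± 0.22 (SE; limma adjusted p = 0.00087), while spo12 had a difference of 0.24 (limma adjusted p = 0.38). SPNCRNA.3891 across cdc22 fell by 0.65 with 129 and 140 counts in Nrm1 and 94.4 and 76.9 in Nrm1-SA (limma adjusted p = 0.00259), and cdc22 fell by 0.76. Wrong-strand reads of cdc22, at the share of strong hosts, would equal 70.5% of the count of SPNCRNA.3891, so whether the antisense RNA itself fell is uncertain. SPNCRNA.720 fell by 1.57 with 18.8 and 18.7 counts in Nrm1, 6.36 and 5.06 in Nrm1-SA and 12.1 and 4.97 in Nrm1-SD (limma adjusted p = 0.0067). These were called under 17, 16 and 15 of 18 alternatives.

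SPNCRNA.7505, antisense to cgs2, the cAMP phosphodiesterase gene, rose by 0.87 with 14.5 and 9.36 counts in Nrm1 and 23.3 and 21.2 in Nrm1-SA. SPNCRNA.1501 rose by 0.56 with 43.6 and 39.8 against 60.4 and 63.7, and SPNCRNA.94 by 0.49 with 68.4 and 86.5 against 102 and 116. Their adjusted p were 0.0237, 0.026 and 0.0445 by limma, 0.258, 0.141 and 0.0745 by edgeR, with ranges over all alternatives of 0.0113 to 0.557, 0.0105 to 0.38 and 0.031 to 0.429, and they were called under 11, 12 and 13 of 18 alternatives. In Nrm1-SD, SPNCRNA.2553 rose by 1.09 with 10.3 and 7.02 counts in Nrm1 and 18.6 and 19.9 in Nrm1-SD (limma adjusted p = 0.0718, called under 9 of 18), and SPNCRNA.721 fell by 0.68 with 48.7 and 37.4 against 27.9 and 24.8 (limma adjusted p = 0.084, called under 7 of 18). Of these 5, edgeR called SPNCRNA.94 alone.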

How the data were processed

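The authors aligned paired reads of polyA-selected, strand-marked libraries with STAR, counted them per feature with HTSeq and deposited them as a signal, the read count divided by the DESeq2 size factor of the library. The submitters' processing notes name FastQC, Trimmomatic, DESeq2 and ASM294v2. Replicates were not pooled. Divided by the value of 1 read in its library, every deposited value was whole (100% within 0.001), so these reads were recovered for edgeR and DESeq2; in 4 libraries the size factor lay too close to 1 for that step to be checked. Features were matched by systematic ID alone to the RefSeq annotation of ASM294v3 (12602 of 12683, all 100 RNAs), which gave neighbours and sequences; the authors' coordinates were not used.

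Tests were made in R 4.3.3 by limma 3.58.1, trended on intensity, on log2(count + 1) of the 7431 features whose mean reached 10, with Benjamini-Hochberg adjustment and the threshold of 0.1 used in the study. Rhythm was tested on the time courses with a level, trend and wave of period 120 min per strain; asynchronous cultures were compared in a fit of 39 condition means. Time points of 1 culture counted as independent, and with 2 libraries per condition the spread was pooled over conditions. Differences understate the change of low counts. The scripts were tested on simulated data. Alternatives included edgeR 4.0.16, DESeq2 1.42.0 and other pseudocounts, filters and periods. Waves, correlations and motifs were computed with Python 3.11.15. A further motif that was planned is not reported here.

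The RNAs and gene lists were chosen with earlier results of these data known. Named are the 12 largest waves, the 6 and 4 smallest adjusted p of asynchronous Nrm1-SA and Nrm1-SD, RNAs at each limit, the 8 with the strongest cycling gene across them, those with a name of their own and the 4 largest and smallest heights relative to Nrm1; RNAs set beside a count or a correlation were chosen after their values were seen.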

Additional observations from a re-analysis of the deposited data

Results flagged for a closer look

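Between the mutants, 6 of the 100 RNAs differed in asynchronous cells (limma, adjusted p below 0.1), against 8.6% of all features, so that the share is not above the background. As Nrm1-SD minus Nrm1-SA on the log2(count + 1) scale, SPNCRNA.1487 differed by -1.715, SPNCRNA.4965, which reached the mean count of the rule only through Nrm1-SD, by 3.587, SPNCRNA.1501 by -0.8839, SPNCRNA.6847 by -1.035, SPNCRNA.7087 by -0.6225 and SPNCRNA.733 by 0.9685. SPNCRNA.6847, antisense to the septation-phase gene SPCC306.11, had 36.0 and 34.4 counts in Nrm1-SA and 18.6 and 14.9 in Nrm1-SD, on either side of 32.5 and 23.4 in Nrm1. The wrong-strand share of hosts of like level would equal 75.9% of its count.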

How the results depend on the processing

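In the control strain the median height of the wave (main value 1.342) was 1.476 with a mean of at least 60, 1.208 without the trend, 1.162 with a period of 110 min and 1.364 to 1.454 from 1 culture. In Nrm1-SA (0.9847) it was 0.8968 without the trend, 0.834 and 1.01 with periods of 110 and 130 min, 0.9048 with a pseudocount of 5, 0.8584 without 0 min and 0.9505 to 0.9731 from 1 culture. In Nrm1-SD (1.267) these were 1.129, 1.096 and 1.303, 1.182, 1.141, and 1.266 to 1.312. With a period of 110 min, 24 RNAs had a rhythm in Nrm1-SA and 53 did in Nrm1-SD. Leaving out a replicate gave 28 to 42 and 58 to 80, and the wave difference between the mutants stayed at 0 calls in all 22 alternatives. The asynchronous Nrm1-SA count of 14 was 3 by DESeq2, 4 by edgeR, 3 by edgeR with no filter, 7 at an adjusted p below 0.05, 7 with no filter, 1 from the asynchronous libraries alone and 2 to 19 without a replicate; the cause was not tested. The 4 for Nrm1-SD were 2 by DESeq2, edgeR, edgeR with no filter, at 0.05, with no filter, from the asynchronous libraries alone and with a pseudocount of 5, and 2 to 7 without a replicate. The 6 between the mutants were 3 from the asynchronous libraries alone and 5 to 15 without a replicate. After the data were seen, fits without the Nrm1-SD libraries of 220 min (7 for asynchronous Nrm1-SD, 11 between the mutants, 42 and 76 with a rhythm), counts without the 5 antisense RNAs near the wrong-strand share of strong hosts (41 and 77), without the 8 near that of hosts of like level (40 and 74), without the 2 RNAs under a mean of 30 in Nrm1 (41 and 78) and a crossed pairing were added. Replicate numbers were not taken to pair strains: deviations from the group means of same-numbered asynchronous libraries had r = -0.115, -0.110 and 0.154 between strains, and same-numbered time points of 1 strain a median of 0.111, against 0.0195 between strains. A replicate block gave rhythm counts of 41 for Nrm1-SA and 79 for Nrm1-SD, and 14, 4 and 6 differences in asynchronous cells, as it did with the numbers of Nrm1 crossed. Counts of a few reads limit the scarcest RNAs, since 3 reads in a library cannot be told from 0.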

Other observations

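SPNCRNA.720 was much lower in asynchronous cultures than at any of the middle time points: 18.8 and 18.7 counts in asynchronous Nrm1 against 34.6 and 28.0 at 0 min and 153 and 171 at 80 min, and 6.36 and 5.06 against 38.4 and 32.7 and 115 and 130 in Nrm1-SA. SPNCRNA.7345 had 3.42 and 2.34 counts in asynchronous Nrm1 and 126 and 131 at 60 min, with 14.4 and 19.9 at 220 min. SPNCRNA.29 (meu19) had 656 and 106 counts in the replicates of Nrm1-SD at 220 min, and SPNCRNA.07 (meu3) 139 and 28.9 there, where SPNCRNA.1069 had 523 and 406. These RNAs were chosen after their values were seen.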
